A study of Mus musculus with 2 samples.

Results

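The immediate early genes described here are *Fos*, *Fosb*, *Jun*, *Junb*, *Jund*, *Egr1*, *Ier2*, *Atf3*, *Nr4a1* and *Zfp36*, 10 of the 32285 genes counted in sorted brain cells of mice. They were chosen by name, and all 10 were counted in both libraries. Immediate early genes are transcribed within minutes of a stimulus from factors already present in the cell, such as CREB, SRF and the ETS proteins that MAP kinases phosphorylate, and need no new protein for it. Jun and Fos proteins pair to form AP-1, which binds DNA and switches on later genes, and several of the early transcripts are short-lived because their tails attract decay factors. In microglia, the resident macrophages of the brain, these genes are also known to be induced while tissue is dissociated, and some preparations therefore add a transcription blocker.

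The members fall into a few roles. *Jun* (chromosome 4, 95049034 to 95052222), *Junb* (chromosome 8, 84974484 to 84978718) and *Jund* (chromosome 8, 70698949 to 70700616) encode the Jun subunits of AP-1, and *Fos* (chromosome 12, 85473890 to 85477273) and *Fosb* (chromosome 7, 19302696 to 19310051) encode Fos subunits. *Atf3* (chromosome 1, 191170296 to 191218039) encodes a stress-induced relative of them. *Egr1* encodes a zinc finger transcription factor, *Nr4a1* (chromosome 15, 101254269 to 101274795) an orphan nuclear receptor, and *Ier2* (chromosome 8, 84661331 to 84662852) a small nuclear protein. *Zfp36* (chromosome 7, 28376784 to 28380253) encodes tristetraprolin, which binds AU-rich elements in the tails of cytokine and early gene transcripts and speeds their decay. Positions are those of the genes on mm10 in the GENCODE annotation.

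RefSeq promoter sequences of build GRCm38.p6 were matched by symbol for 8 of the 10 members, all but *Egr1* and *Ier2*, and the 250 bases before the start that RefSeq gives were searched on both strands. The half-site of the cAMP response element, TGACG, through which CREB and ATF proteins bind, was found before the start of 5 of these 8 members (*Atf3*, *Fos*, *Fosb*, *Junb* and *Nr4a1*), and in 17.8% of all 32851 promoters of the table. The Egr1 site GCGGGGGCG was found in 3 (*Fosb*, *Nr4a1* and *Zfp36*), and in 2.57% of all promoters. The CArG box, to which SRF binds, was found before *Zfp36* alone and in 1.47% of all promoters. The TATA box TATAAA was found before *Fos* alone and in 12.4%. The AP-1 site TGANTCA and the full cAMP response element TGACGTCA, which contains the half-site, were found before none of the 8, and in 6.75% and 1.55% of all promoters. The stretches next to *Fos* (chr12:85473750-85473889, plus strand), *Fosb* (chr7:19310046-19310185, minus strand) and *Nr4a1* (chr15:101266596-101266845, plus strand) are shown because they hold the most of these letters. They end at the base before the RefSeq start, which for *Fosb* and *Nr4a1* lies inside the GENCODE span given above and not at its edge, and are written 5′ to 3′ on the strand of the gene, with the half-site and the Egr1 site, on either strand, in capitals.
Fos: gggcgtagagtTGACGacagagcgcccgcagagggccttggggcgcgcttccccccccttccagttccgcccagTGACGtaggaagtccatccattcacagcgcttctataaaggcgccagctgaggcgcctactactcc
Fosb: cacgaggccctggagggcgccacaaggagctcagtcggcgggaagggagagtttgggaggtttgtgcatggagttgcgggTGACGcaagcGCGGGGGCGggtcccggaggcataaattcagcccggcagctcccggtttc
Nr4a1: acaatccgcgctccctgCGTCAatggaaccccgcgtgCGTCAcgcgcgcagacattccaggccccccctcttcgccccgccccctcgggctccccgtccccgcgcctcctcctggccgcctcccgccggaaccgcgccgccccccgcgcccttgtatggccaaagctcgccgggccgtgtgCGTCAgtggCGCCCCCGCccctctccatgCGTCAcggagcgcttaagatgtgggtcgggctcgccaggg
The half-sites begin 129 and 66 bases before the RefSeq start of *Fos*, 60 before that of *Fosb*, and 233, 213, 69 and 40 before that of *Nr4a1*. A match of letters is a description and not a site in use.

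Each of the 2 libraries was made from the pooled brains of 6 male mice of 23 weeks, of genotype *Disc1 WT/WT* or *Disc1 LI/LI*. The littermates differ in *Disc1*, whose locus impairment (LI) allele is carried throughout the body. Both pools were dissociated for 40 min with actinomycin D, a blocker of transcription, at 15 µM in the enzyme mix and 3 µM in the density gradient, and the sort took CD45-low cells that carried CD11b, a myeloid surface marker. With 1 library per genotype no comparison has a replicate check, genotype and library cannot be told apart, and all intervals are 95% exact intervals that cover counting error only.

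*Disc1* had 642 UMIs (random tags that count each captured transcript once) in the *Disc1 WT/WT* and 22 in the *Disc1 LI/LI* library. Barcodes that passed the filter of 200 genes and no more than 10% mitochondrial UMIs numbered 7032 of 7038 and 7817 of 7834 barcodes, with 33591758 and 47689834 UMIs, and 12 barcodes occurred in both libraries. Microglia were cells with at least 0.5% of UMIs from 6 genes (*P2ry12*, *Gpr34*, *Tmem119*, *Siglech*, *Fcrls*, *Olfml3*) and under 1% from *S100a8* and *S100a9*, 6180 cells in *Disc1 WT/WT* against 1950 in *Disc1 LI/LI*. Neutrophils, with at least 3% from *S100a8* and *S100a9*, numbered 116 and 3622, and other cells 736 and 2245. Markers outside the gates fitted the names: of 11 lists, that of microglia led in 99.6% and 99.0% of the microglia. The neutrophil list led in 76.7% of the *Disc1 WT/WT* and 91.8% of the *Disc1 LI/LI* neutrophils, and 16 of the 116 *Disc1 WT/WT* neutrophils had more markers of microglia. Neutrophil RNA was found in microglia at 0.0169% of the neutrophil level in *Disc1 WT/WT* against 0.736% in *Disc1 LI/LI*, as the median over 7 markers.

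Levels of the members in microglia were compared between the genotypes as counts per 1000000 (CPM), the UMIs of a gene per 1000000 UMIs of the same cells. In *Disc1 LI/LI* microglia 9 of the 10 members lay above *Disc1 WT/WT* and *Fosb* below it. The largest ratios were those of *Nr4a1* and *Fos*, and *Jun* and *Egr1* were close to equal. Of the Jun subunits, *Jun* had 716 CPM (interval 706 to 726) in *Disc1 WT/WT* and 761 (742 to 779.9) in *Disc1 LI/LI* microglia. *Jund*, a subunit that many cells make without a stimulus, had 530.2 (522 to 539) and 632 (615 to 649), and *Junb* had 354 (348 to 361) and 528 (513 to 544). Thus the spread of the genotype ratio within 1 subunit family ran from a log2 ratio of 0.09 (0.05 to 0.13) for *Jun* through 0.25 (0.21 to 0.30) for *Jund* to 0.58 (0.52 to 0.63) for *Junb*.

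*Fos* had 80.0 CPM (76.8 to 83.3) in *Disc1 WT/WT* and 141 (133 to 149) in *Disc1 LI/LI* microglia, a log2 ratio of 0.81 (0.71 to 0.92). Its UMIs were unevenly spread over cells: the 1% of *Disc1 WT/WT* microglia with the most held 50.5% of them, and 1 cell held 110. In *Disc1 LI/LI* the highest 1% of microglia held 33.0%. Of the *Disc1 WT/WT* microglia 9.48% (8.76 to 10.2) held a *Fos* UMI, against 19.3% (17.6 to 21.2) for *Disc1 LI/LI*, at median depths of 4271 and 3787.5 UMIs. With every cell thinned to 1000 UMIs, the shares were 4.02% and 7.40%. The share was thus larger in *Disc1 LI/LI*, whose microglia were the shallower before thinning, both unthinned and thinned. Unthinned *Disc1 LI/LI* microglia with *Fos* held 3.05 UMIs of it on average, against 4.01 for *Disc1 WT/WT*. At the median share given above, neutrophil RNA would carry 13.6 CPM of *Fos* in *Disc1 LI/LI* microglia, against 0.305 for *Disc1 WT/WT*. Monocyte RNA is treated below. The part of RNA of other cells in the share of microglia with *Fos* was not tested. No cell type here is known to lack the members. In cells with T cell markers, a lymphocyte class, 20.5% of 39 *Disc1 WT/WT* cells held a *Fos* UMI, against 30.8% of 52 *Disc1 LI/LI* cells, at median depths of 4416 and 4114.5 UMIs. *Atf3* had 0 UMIs in the 52 *Disc1 LI/LI* cells with T cell markers, which allows up to 12.2 CPM.

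*Fosb* was scarce, with 8.27 CPM (7.26 to 9.38) in *Disc1 WT/WT* and 7.59 (5.82 to 9.73) in *Disc1 LI/LI* microglia, and the interval of its log2 ratio (-0.12, -0.55 to 0.28) spanned 0. *Atf3* stood at 35.97 (33.8 to 38.2) and 51.0 (46.3 to 56.2), with a log2 ratio of 0.50. *Egr1* had 26.6 (24.8 to 28.6) and 28.5 (24.97 to 32.4), with a log2 ratio of 0.10 (-0.12 to 0.31) that also included no change. *Nr4a1* had only 74 UMIs in the 6180 *Disc1 WT/WT* microglia and 59 in the 1950 *Disc1 LI/LI* microglia, or 2.52 (1.98 to 3.16) and 7.22 (5.50 to 9.31) CPM, and a log2 ratio of 1.52 (1.00 to 2.03). *Ier2* stood at 45.6 (43.2 to 48.1) and 69.4 (63.8 to 75.3), with a log2 ratio of 0.60, and *Zfp36* 178 (173 to 183) and 277 (266 to 289), a log2 ratio of 0.64. Summed, the 10 members made up 0.198% of the UMIs of *Disc1 WT/WT* microglia and 0.2502% of those of *Disc1 LI/LI* microglia.

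**Figure D1:**
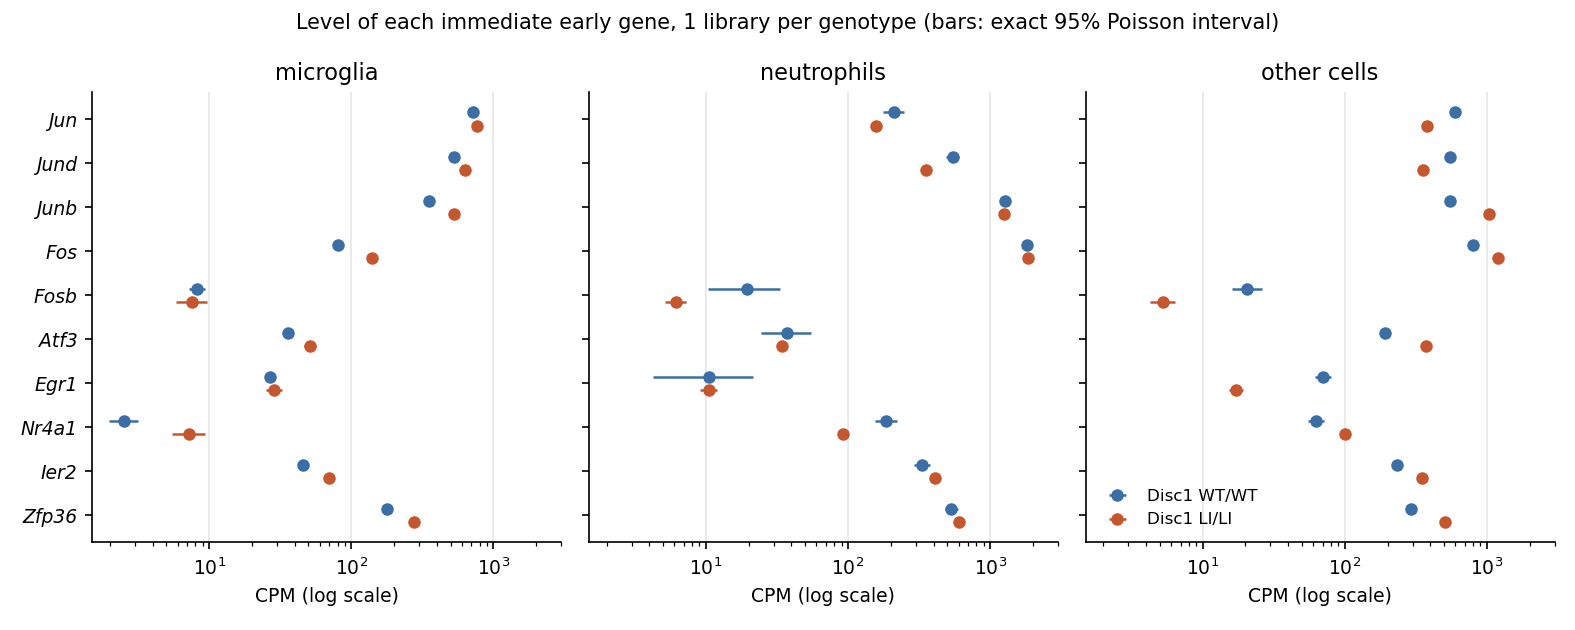
Level of each member in CPM (log axis) in microglia, neutrophils and other cells of the *Disc1 WT/WT* and *Disc1 LI/LI* libraries, with exact 95% Poisson intervals for counting error. *Fos* lies at 80.0 and 141 in microglia and at 1812 and 1846 in neutrophils, while *Jun* lies at 716 and 761 in microglia and at 210 and 157 in neutrophils.

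The median log2 ratio of the 10 members in microglia was 0.54. The median over all 3556 genes that reached 50 CPM in either library was -0.12, and 39.5% of them were higher in *Disc1 LI/LI*. Ratios in microglia moved with gene length, and 8 of the 10 members span at most 7356 bases from start to end. Over the 742 other genes of at most that span the median was 0.20. Of the 7 members with at least 50 CPM, 0 were past 2-fold, with 0.591% of all genes at least 2-fold higher and 0.816% at least 2-fold lower. *Atf3* and *Ier2* reached 50 CPM through *Disc1 LI/LI* alone, where they were higher. *Nr4a1*, at 2.87-fold, lay below that level. TMM scaling, which takes the bulk of genes as equal, raised all log2 ratios in microglia by 0.13 and turned that of *Fosb* to a value above 0, and 10 of 10 members were then higher. The share of all genes that were higher under that scaling was not counted.

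RNA of other cells in the droplets moved with the same difference. The neutrophil level of *Fos* in *Disc1 LI/LI*, taken at the median and the highest share of the 7 markers (0.736% and 1.17%), amounts to 13.6 and 21.5 of the 141 CPM in microglia. Taking the highest share off left 79.3 for *Disc1 WT/WT* microglia against 119 for *Disc1 LI/LI*, a log2 ratio of 0.59 for *Fos*. For *Junb*, *Zfp36* and *Nr4a1* the log2 ratios were then 0.54, 0.60 and 1.33. Markers of classical monocytes, which circulate in blood, were in microglia at a median of 0.107% of their level in cells with those markers for *Disc1 WT/WT*, against 1.66% for *Disc1 LI/LI*. At that median share they would carry 3.88 and 27.9 CPM of *Fos*, and at the highest share among the 8 markers 33.1 and 64.7. For *Nr4a1* the same shares amount to 0.297 and 2.53 of the 2.52 CPM in *Disc1 WT/WT* microglia, and to 2.38 and 5.53 of the 7.22 in *Disc1 LI/LI*. For *Atf3* they amount to 0.659 and 5.61 of 35.97, and to 9.12 and 21.2 of 51.0. Any marker transcripts made by microglia themselves would lower these amounts. Some of these markers were also high in *Disc1 LI/LI* neutrophils, such as *Chil3* (4043 CPM) and *Hp* (2408), while others, such as *Ccr2* (29.8) and *Vcan* (4.49), were low there. The monocyte amounts can therefore include neutrophil RNA and cannot be added to the neutrophil amounts. Microglia without any *S100a8* or *S100a9* UMI numbered 5428 in *Disc1 WT/WT* but 157 in *Disc1 LI/LI*, where they made up 8.05% and had a median of 3153 UMIs. In them the median log2 ratio of the members was 0.32. *Fos* stayed above *Disc1 WT/WT* there, at 0.66 (0.27 to 1.03), as did *Junb*, at 0.28 (0.08 to 0.48), whereas *Atf3* turned to -0.31 (-1.19 to 0.44). These intervals do not cover the spread between cells, which are few. Over all *Disc1 LI/LI* microglia the highest 1% held 33.0% of the *Fos* UMIs, and 1 cell held 62. A few cells could thus weigh heavily in the *Fos* ratio of the 157. The part of RNA of other cells in the ratios was not tested further.

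**Figure D2:**
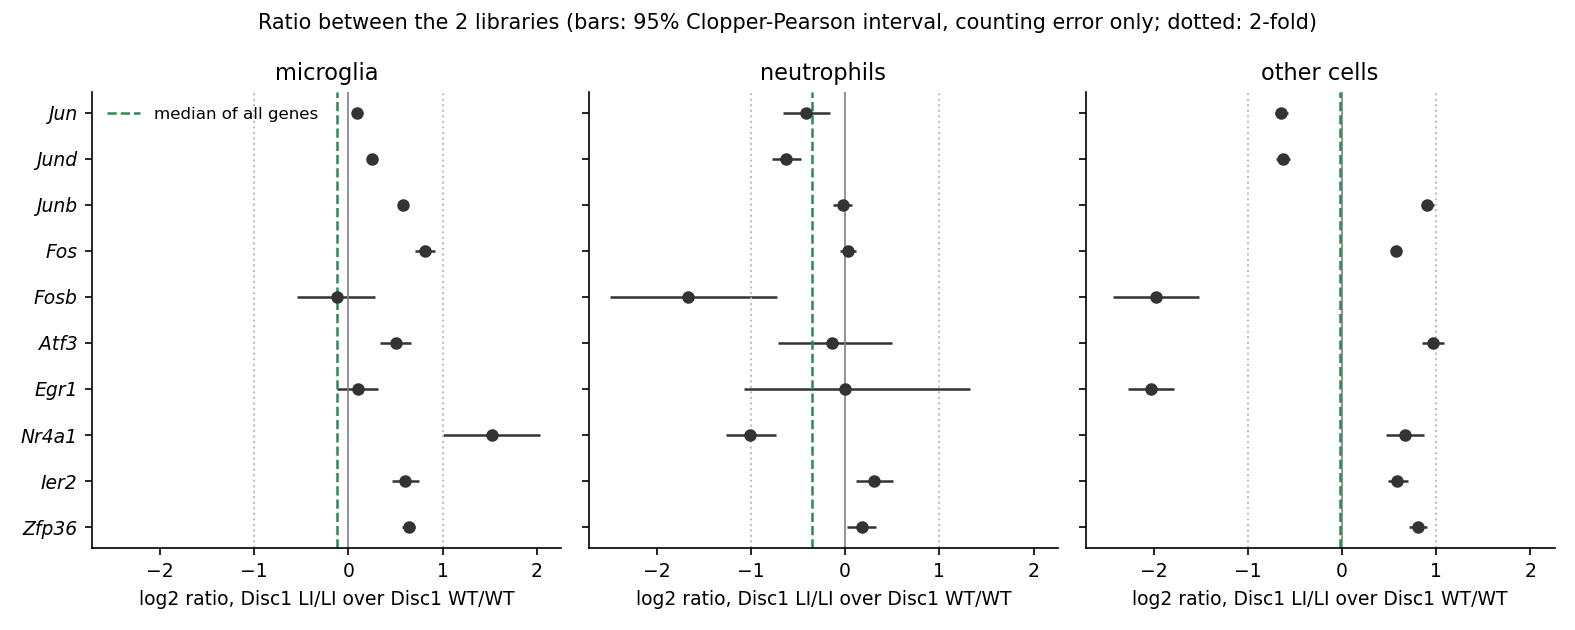
Log2 ratio of each member (*Disc1 LI/LI* over *Disc1 WT/WT*) by cell class, with 95% Clopper-Pearson intervals for counting error, the median of all genes as a dashed line and 2-fold as dotted lines. In microglia 8 of the 10 intervals lie above 0 and none below, in neutrophils 2 above and 4 below, and in other cells 6 above and 4 below. Of all genes that reached 50 CPM, 39.5%, 30.7% and 48.8% were higher in *Disc1 LI/LI* in these classes. The share of all genes with an interval off 0 was not counted.

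Neutrophils, short-lived granulocytes of the blood and bone marrow, showed another picture. *Fos* and *Junb* were high in both libraries and close to equal between them, while *Jund*, *Nr4a1* and *Jun* were lower in *Disc1 LI/LI*. *Fos* had 1812 CPM (1711 to 1917) in the 116 *Disc1 WT/WT* neutrophils and 1846 (1828 to 1864) in the 3622 *Disc1 LI/LI* neutrophils, and 93.1% and 97.3% of the cells held a *Fos* UMI. *Junb* had 1265 (1181 to 1353) and 1243 (1228 to 1258). Their log2 ratios of 0.03 (-0.06 to 0.11) and -0.03 (-0.12 to 0.08) included no change.

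*Jun* had 209.8 CPM (177 to 248) in *Disc1 WT/WT* and 157 (152 to 163) in *Disc1 LI/LI* neutrophils, a log2 ratio of -0.42 (-0.66 to -0.16). *Jund* had 546 and 353, a log2 ratio of -0.63 (-0.78 to -0.47), and *Nr4a1* had 186 and 92.4, a log2 ratio of -1.01 (-1.27 to -0.73). *Ier2* and *Zfp36* were the members higher in *Disc1 LI/LI* neutrophils beyond counting error, with 331 and 410.4 CPM of *Ier2* and 532 and 601 of *Zfp36*. *Fosb* was lower in *Disc1 LI/LI*, at 19.5 and 6.12 CPM and a log2 ratio of -1.67 (-2.50 to -0.72), on 13 UMIs in the *Disc1 WT/WT* neutrophils. *Egr1* had only 7 UMIs there. Of 7 members with at least 50 CPM, 1 was past 2-fold and lower (*Nr4a1*), against 16.2% of 2433 genes lower and 2.92% higher. The members' median log2 ratio of -0.08 stood beside -0.36 for all genes and 0.15 for the 565 other genes as short as 8 of the members.

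Microglial RNA in the *Disc1 WT/WT* neutrophils moved with part of this. *C1qa*, a microglial complement gene, had 2145 CPM there and 521 in the *Disc1 LI/LI* neutrophils. At the median share of 8 microglial markers, 20.4% of the microglial level in *Disc1 WT/WT* but 3.76% in *Disc1 LI/LI*, it would carry 146 of the 209.8 CPM of *Jun* in *Disc1 WT/WT* neutrophils and 28.6 of the 157 in *Disc1 LI/LI*. For *Nr4a1*, which microglia hardly held, it would carry 0.514 of the 186. Among neutrophils with under 0.5% of UMIs from the 6 microglia genes the log2 ratios were -0.26 (-0.55 to 0.04) for *Jun*, -0.51 (-0.69 to -0.33) for *Jund*, -1.20 (-1.47 to -0.92) for *Nr4a1* and -0.14 (-0.23 to -0.05) for *Fos*, and the intervals of *Ier2* and *Zfp36* then included no change. TMM scaling raised all log2 ratios in neutrophils by 0.54, which put *Fos* at 0.57 (0.49 to 0.65), *Junb* at 0.52 (0.42 to 0.62), *Jun* at 0.13 (-0.12 to 0.38), *Jund* at -0.09 (-0.24 to 0.07) and *Nr4a1* at -0.46 (-0.73 to -0.19). The calls of *Fos*, *Junb*, *Jun* and *Jund* in neutrophils thus depended on the scaling, and *Nr4a1* stayed lower in *Disc1 LI/LI* but was no longer past 2-fold.

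Between the cell classes, *Fos* and *Jun* ran in opposite directions. In *Disc1 WT/WT*, *Fos* was 22.7-fold (21.1 to 24.3) higher in neutrophils than in microglia and *Jun* was 0.293-fold (0.246 to 0.346) of the microglial level. In *Disc1 LI/LI* the same folds were 13.1 (12.4 to 13.9) and 0.207 (0.198 to 0.216). *Nr4a1* differed most of all members in *Disc1 WT/WT*, by 73.8-fold (54.9 to 99.8), and by 12.8-fold (9.88 to 16.9) in *Disc1 LI/LI*. *Ier2*, *Junb* and *Zfp36* were also higher in neutrophils than in microglia of both libraries, by 2.17-fold to 7.26-fold. *Egr1* was lower, at 0.394-fold and 0.367-fold. *Jund* was level in *Disc1 WT/WT* (1.03-fold, 0.925 to 1.14) and lower in *Disc1 LI/LI* (0.559-fold). *Atf3* and *Fosb* gave no common direction in the 2 libraries. Fewer cells that transcribe a gene and less RNA of it per cell cannot be told apart in these summed levels. Counted per cell in *Disc1 WT/WT*, 4.02% of thinned microglia and 73.9% of thinned neutrophils held a *Fos* UMI. Unthinned cells with *Fos* held 4.01 and 11.2 UMIs of it on average. For *Jun* the shares were 37.2% and 19.1%, and the averages 5.02 and 3.18. Both measures ran in the same directions in *Disc1 LI/LI*.

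In the other cells 6 members were higher in *Disc1 LI/LI* and 4 lower, all beyond counting error. Of all 3256 genes that reached 50 CPM there, 48.8% were higher, and the share with an interval off 0 was not counted. The cells behind the sums differed, since classical monocyte markers led in 36 of the 736 *Disc1 WT/WT* cells and in 1244 of the 2245 *Disc1 LI/LI* cells, and microglia markers in 402 and 227. Over all other cells *Fos* had 799 CPM in *Disc1 WT/WT* against 1189 in *Disc1 LI/LI*, *Junb* 550.1 and 1032, and *Atf3* 191 and 373. *Egr1* had 70.1 and 17.2 and *Jun* 593 and 379.8, and these were the lower ones together with *Jund* and *Fosb*. The median log2 ratio was 0.58, beside -0.02 for all genes and 0.36 for the 808 other genes as short as 8 of the members. Of 9 members with at least 50 CPM, 1 was past 2-fold (*Egr1*, lower), with 15.2% of 3256 genes lower and 6.79% higher. TMM scaling raised all log2 ratios in other cells by 0.48, which turned the direction of none of the members and put the 6 higher ones past 2-fold. It raised all other genes by the same amount, and their share past 2-fold under that scaling was not counted.

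Within classes set by markers the picture was mixed. The share of all genes that differed in the same way was not counted in these classes, so the counts below describe the members alone. In cells with classical monocyte markers *Fos* had 3644 CPM (3441 to 3856) in the 36 *Disc1 WT/WT* cells and 1677 (1652 to 1702) in the 1244 *Disc1 LI/LI* cells, a log2 ratio of -1.12 (-1.20 to -1.03), opposite to the ratio over all other cells. Of the 10 members 6 were lower there beyond counting error, *Fosb*, *Egr1* and *Nr4a1* by log2 ratios of -3.15, -2.01 and -0.96 and *Jun* and *Jund* by -0.27 and -0.33. *Zfp36* alone was higher, at 479 and 649.7, and *Junb* had 1239.8 and 1352. TMM scaling was not run within the classes set by markers. Over all other cells it raised log2 ratios by 0.48, more than the size of the *Jun* and *Jund* ratios here. In cells with dendritic and MHC class II markers, which present antigen, 8 of the 10 members were higher in *Disc1 LI/LI* beyond counting error and none lower. There *Fos* had 321 CPM in 30 *Disc1 WT/WT* cells and 749.8 in 88 *Disc1 LI/LI* cells, and *Junb* 399.6 and 1201. The intervals of these ratios do not cover the spread between cells, which are few. *Atf3*, for example, had 36 UMIs in 16.7% of the 30 *Disc1 WT/WT* cells. In cells with microglia markers but outside the microglia gate, *Fos* had 605 in 402 cells and 654 in 227, a log2 ratio of 0.11 (-0.02 to 0.25). There 5 members were higher beyond counting error, among them *Junb*, *Nr4a1*, *Zfp36* and *Atf3* with ratios of 0.77, 1.01, 0.57 and 0.47. The 3 lower ones were *Jun* at -0.35 (-0.48 to -0.22), *Egr1* at -0.40 (-0.80 to -0.01) and *Fosb* at -1.23 (-2.39 to -0.20).

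Across the classes of at least 20 cells in *Disc1 LI/LI*, *Fos* was highest in neutrophils (1846) and in cells with classical monocyte markers (1677). It was lower in cells with neutrophil markers outside the neutrophil gate (1246, 42 cells), in unassigned cells (804) and in cells with dendritic markers (749.8). Values were 654 with microglia markers outside the microglia gate, 439.5 with nonclassical monocyte markers, 297.5 with progenitor markers (73 cells) and 234 with B lineage markers. *Fos* was lowest in microglia of the gate (133 to 149), in cells with NK cell markers (57.9 to 146) and in cells with T cell markers (49.8 to 126), of which NK cells did not separate from either neighbour. *Fos* in 68 *Disc1 WT/WT* cells with markers of border macrophages, which line the brain's surfaces and vessels, was 82.6 (50.4 to 128), level with the 80.0 of microglia. *Nr4a1* had its highest values, among classes of at least 20 cells, with the markers of nonclassical monocytes, which are known to need it to survive, at 391 CPM over 34 *Disc1 WT/WT* cells and 244 over 67 *Disc1 LI/LI* cells. *Jund* had 852 over 14 *Disc1 WT/WT* cells and 711 over 60 *Disc1 LI/LI* cells with NK cell markers, where *Fos* was low. NK cells were not its highest class. With B lineage markers *Jund* had 1206 over 10 *Disc1 WT/WT* and 739 over 130 *Disc1 LI/LI* cells. With neutrophil markers outside the neutrophil gate it had 778 over 42 *Disc1 LI/LI* cells.

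Within the microglia, *Fos* depended on how much of the 6 gate genes a cell held. Among cells led by microglia markers with under 1% *S100a8* and *S100a9*, those with 0.5% to 1% of UMIs from the gate genes had 139 CPM of *Fos* in *Disc1 WT/WT* (1829 cells), those with 1% to 1.5% had 61.2 (3293 cells) and those with 1.5% to 2% had 31.2 (939 cells). In *Disc1 LI/LI* the values were 163 (751 cells), 115 (967 cells) and 111 (197 cells). Over these ranges the genotype difference of *Fos* was wider in the cells with more of the gate genes, which also define the class. At 2% or more, *Fos* had only 2 UMIs in 16 *Disc1 LI/LI* cells. The part of RNA of other cells in this difference was not tested. Below the gate, at under 0.25%, *Fos* was 851 over 191 *Disc1 WT/WT* cells and 996 over 86 *Disc1 LI/LI* cells.

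*Ier2*, *Atf3*, *Egr1* and *Nr4a1* followed the same course in *Disc1 WT/WT*, from 279.6, 223, 89.9 and 31.8 CPM under 0.25% to 28.8, 23.2, 14.4 and 1.71 at 1.5% to 2%. *Jun* and *Jund* moved little, with 779 and 605 under 0.25% and 619 and 493 at 1.5% to 2%. Other genes moved along. From the lowest to the 1.5% to 2% range in *Disc1 WT/WT*, *Apoe*, a lipid carrier of macrophages, went from 18089 to 202 CPM, *Lyz2*, the lysozyme of myeloid cells, from 7148 to 217, and *Mrc1*, a border macrophage receptor, from 456 to 11.46. The median mitochondrial share went from 1.35% to 0.765%. Their part in the level of *Fos* was not tested.

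**Figure D3:**
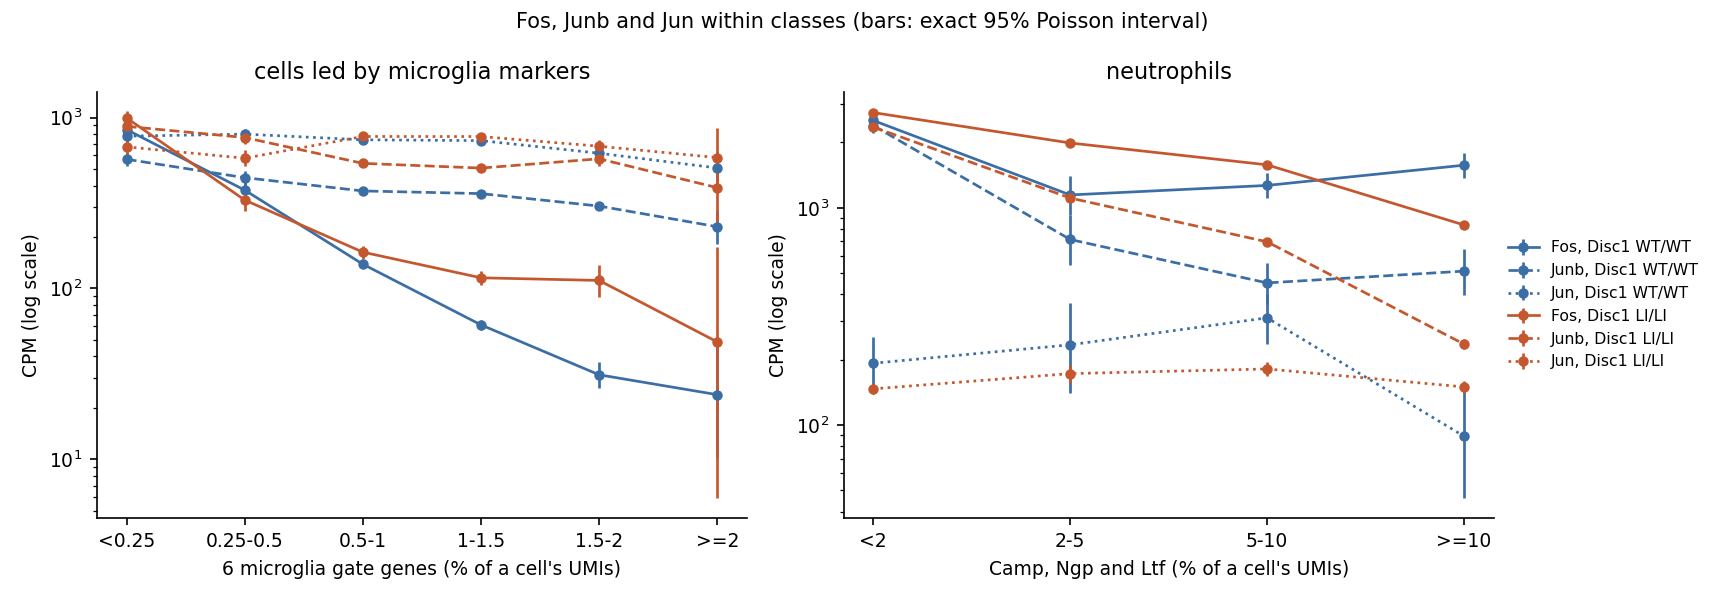
CPM (log axes) of *Fos*, *Junb* and *Jun* by the share of the 6 gate genes in cells led by microglia markers (left) and by the share of 3 granule genes in neutrophils (right), with exact 95% Poisson intervals. *Fos* goes from 851 to 23.9 in *Disc1 WT/WT* along the gate genes and from 2743 to 834 in *Disc1 LI/LI* along the granule genes, while *Jun* stays between 507 and 800.4 in the *Disc1 WT/WT* cells on the left. The last point on the left holds 95 *Disc1 WT/WT* cells but only 16 *Disc1 LI/LI* cells.

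Neutrophils were set out by *Camp*, *Ngp* and *Ltf*, granule genes made by immature cells of the lineage and lost as they mature. In *Disc1 LI/LI*, *Fos* was 2743 CPM in 2209 cells with under 2% of UMIs from the granule genes, 1987 in 354 cells with 2% to 5%, 1577 in 517 cells with 5% to 10% and 834 in 542 cells with 10% or more. *Junb* went from 2354 through 1109 and 697 to 236, and *Zfp36* from 1001 to 193. The AP-1 partners thus did not move as 1 group, since *Jun* was 147, 173, 181 and 149.8 over the same cells. *Ier2* was 477 at the least and 339 at the most granule RNA, and *Nr4a1* was 86.8, 104, 121 and 78.1 in the same order. The median depth went from 2905 to 10018 UMIs along the same order, and its part was not tested. In *Disc1 WT/WT* the same classes held 70, 10, 19 and 17 cells, with 2522, 1146, 1268 and 1570.5 of *Fos* and 2390.1, 715, 451 and 511 of *Junb*. Both were highest at the least granule RNA, with no steady course after it.

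How often the members met in 1 cell was counted with each cell thinned to 1000 UMIs. Of 6076 *Disc1 WT/WT* microglia 13.9% (13.05 to 14.8) held UMIs of 3 or more members and 32.1% held none. Of 1933 *Disc1 LI/LI* microglia 19.1% (17.4 to 20.9) held 3 or more and 29.4% none. Unthinned, 53.6% and 57.1% held 3 or more. In neutrophils the thinned share was 68.7% (59.4 to 77.0) of 115 and 66.3% (64.7 to 67.8) of 3618 cells, and in other cells 23.5% and 43.1%. A microglial cell therefore held several members less often than a neutrophil at the same depth in both libraries. In the *Disc1 LI/LI* microglia without *S100a8* or *S100a9* UMIs the share was 12.7% (7.80 to 19.1) of 150 cells. That interval includes the *Disc1 WT/WT* value of 13.9%. Its upper end equals, within rounding, the 19.1% of all thinned *Disc1 LI/LI* microglia. So few cells do not decide between these values.

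**Figure D4:**
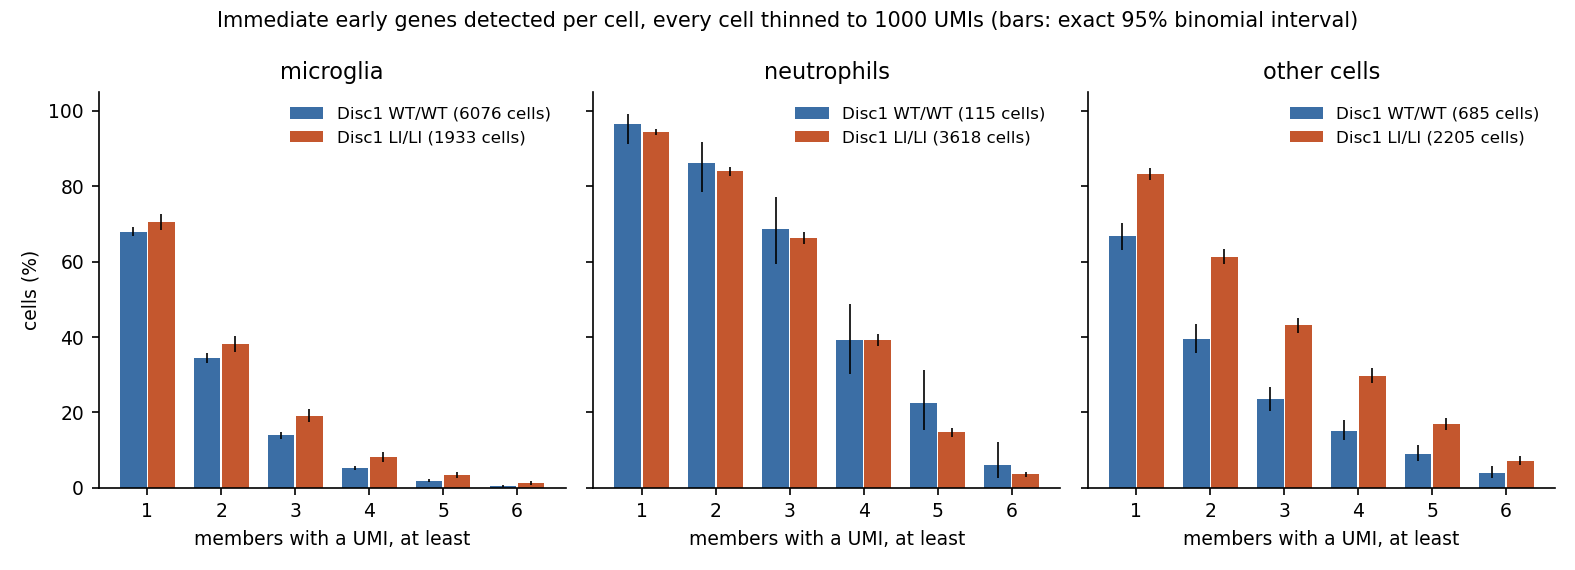
Share of cells (percent) with UMIs of at least 1 to at least 6 members, in cells thinned to 1000 UMIs, for each class and library, with exact 95% binomial intervals. At 3 or more members the bars stand at 13.9% and 19.1% in microglia and at 68.7% and 66.3% in neutrophils.

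In microglia a member was found more often in cells with another member than in cells without it, in nearly all pairs. Of the ordered pairs with enough cells, the share of cells with the second member was higher among cells with the first than among cells without it in 81 of 81 pairs in *Disc1 WT/WT* and 71 of 72 in *Disc1 LI/LI*, with median folds of 2.60 and 2.44. Both orders of a pair always fall on the same side, so the ordered pairs are not separate outcomes. The same count over pairs of other genes was not made, so it describes the members alone. A *Fos* UMI was found in 7.57% (6.51 to 8.73) of *Disc1 WT/WT* microglia with a *Jun* UMI and in 1.91% (1.502 to 2.40) of those without. In *Disc1 LI/LI* the shares were 13.1% (10.8 to 15.8) and 3.97% (2.94 to 5.23). The share of cells with *Fos* was thus higher with its AP-1 partner than without it in both libraries, with folds of 3.96 and 3.31 thinned and 6.14 and 2.45 unthinned.

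*Egr1* and *Fos* met most closely among the better detected pairs: an *Egr1* UMI was found in 13.9% of 244 thinned *Disc1 WT/WT* microglia with *Fos* and in 1.51% of the rest, and in 14.0% of 143 and 1.17% of the rest in *Disc1 LI/LI*. *Atf3* was found in 12.7% with *Fos* and 2.21% without in *Disc1 WT/WT*, and *Zfp36* in 36.9% and 13.3%. *Jund* was the least tied to *Fos*, with 52.0% and 34.1%. In neutrophils the median folds were 1.09 over 58 pairs in *Disc1 WT/WT* and 1.32 over 90 pairs in *Disc1 LI/LI*. A fold has less room the more cells hold the gene, and thinned *Fos* was found in 73.9% and 80.5% of these neutrophils. The folds therefore do not compare how closely members met in neutrophils and in microglia. The same limit holds for *Jund* in microglia. *Junb* was found in 75.1% of *Disc1 LI/LI* neutrophils with *Fos* and 41.8% of those without, whereas *Fos* was found in 80.4% with *Jun* and 80.5% without. Because members are paired within the same cells, these folds share cells and free RNA and are given as a description.

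The genes most like the members in microglia were sought as those that are no member and had the highest fold between the 845 thinned *Disc1 WT/WT* microglia with 3 or more members and the 1951 with none, among genes with at least 50 CPM in the former. Genes below that level, such as *Egr2* with 22.5 and 0.513 CPM, could have higher folds and were not ranked. They were *Dusp1*, *Ccl4*, *Ier3*, *Ccl3*, *B930036N10Rik*, *Klf2*, *Ccl2*, *Ppp1r15a*, *Ccrl2* and *Hspa1a*, with folds from 18.4 to 4.89, while the median over all 3436 genes compared was 1.02. *Dusp1*, a phosphatase that shuts off MAP kinases, had 207 CPM in the cells with 3 or more members and 11.3 in the others, an 18.4-fold difference (11.8 to 30.1). In the *Disc1 LI/LI* library, which was not used to choose the genes, *Dusp1* had 309 and 29.9, a 10.3-fold difference (6.18 to 18.4).

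*Ccl4* and *Ccl3*, chemokines that microglia release, had folds of 12.6 and 9.85 in *Disc1 WT/WT* and 17.7 and 8.76 in *Disc1 LI/LI*. The folds were 7.11 and 4.36 for *Klf2*, a Krüppel-like transcription factor, 6.51 and 10.8 for *Ppp1r15a*, which restores translation after stress, and 4.89 and 4.44 for *Hspa1a*, an inducible heat shock protein. *B930036N10Rik* had 80 UMIs in the cells with 3 or more members and 20 in those with none in *Disc1 WT/WT*, and 29 and 0 in *Disc1 LI/LI*. For *Ier3*, *Ccl2* and *Ccrl2*, a chemokine-binding receptor, the folds in *Disc1 LI/LI* were 7.07, 3.08 and 5.33. Microglial identity genes went both ways between the same cells, with folds of 0.957 and 0.913 for *P2ry12*, 0.971 and 0.971 for *C1qa*, 0.939 and 0.855 for *Csf1r*, and 1.17 and 1.19 for *Tmem119*. The median depth before thinning was 4468 against 4197 UMIs in *Disc1 WT/WT* and 3935 against 3686 in *Disc1 LI/LI*. *S100a9*, from neutrophils, had 482 and 322 CPM in the *Disc1 LI/LI* cells, and 15.4 and 12.8 in *Disc1 WT/WT*. Other neutrophil genes differed less in *Disc1 LI/LI*. *S100a8* had 360 and 336 CPM there, *Ngp* 157 and 142, and *Retnlg* 211 and 170, while *Camp* was lower, at 136 and 153. The intervals of the folds of these other genes included no change.

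**Figure D5:**
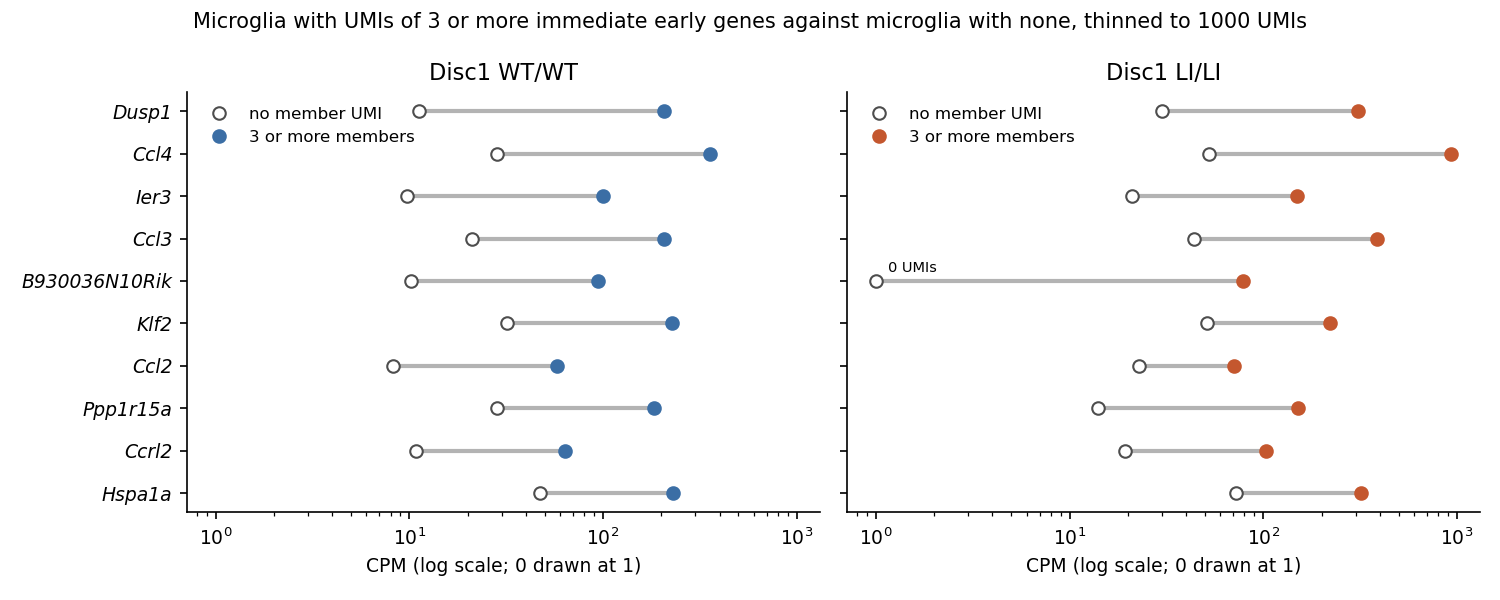
CPM (log axis, 0 drawn at 1) of the 10 genes most like the members in thinned microglia with UMIs of 3 or more members (filled) and with none (open), in each library. All 10 genes were chosen in *Disc1 WT/WT*, and each also lies higher in *Disc1 LI/LI* at the filled points, for example *Ccl4* at 932 against 52.7.

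Lists of related genes were compared between the genotypes in microglia, over genes that reached 50 CPM in either library. Of 4 other early transcription factors 3 lay above *Disc1 WT/WT* and 1 below, with a median log2 ratio of 0.41, and none was past 2-fold. *Klf2* had 69.5 and 101.5 CPM, *Ier3*, which reached 50 CPM through *Disc1 LI/LI* alone, 34.0 and 55.9, and *Klf6* 204 and 182. Of 10 early feedback regulators 4 were higher and 6 lower, with a median of -0.10, close to the -0.12 of all genes. *Dusp1* was the 1 of them past 2-fold, with 51.3 and 104 CPM and a log2 ratio of 1.02 (0.90 to 1.14), while *Btg2*, an early inhibitor of proliferation, stayed level at 437 and 445. The feedback genes thus did not share the direction of the members as a list.

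Of 5 inducible cytokines 4 were higher and 1 lower, with a median of 0.71, and 2 were past 2-fold. *Ccl4* had 117 and 267 CPM and *Il1b* 12.9 and 51.3, so that *Il1b* entered the count through *Disc1 LI/LI* alone, where it was high. It had 2389 and 1363 in neutrophils, far above its microglial level, and *Ccl4* had 79.4 and 66.5 there. The part of neutrophil RNA in the microglial value of *Il1b* was not tested. Of 12 heat shock genes 7 were higher and 5 lower, with a median of 0.11. *Hspa1a* and *Hspa1b*, the inducible ones, had log2 ratios of 0.80 (0.71 to 0.89) and 0.67 (0.58 to 0.77). Of 10 kinases and factors upstream of the early genes 2 were higher and 8 lower, with a median of -0.44, among them *Creb1* at -0.54 and *Mef2a* at -0.71. The lists were not matched for gene length, with which ratios in microglia moved. Of 5 other AP-1 and related genes 1 was higher and 4 lower, with a median of -0.13. The shift of 0.13 under TMM scaling turns the median of the feedback regulators to a value above 0, brings that of the AP-1 and related genes to 0 within rounding and leaves the other lists in their direction. Among these lists the values of the members in microglia, with a median of 0.54, stood nearest to those of the other early transcription factors and the cytokines.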

How the data were processed

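Cells sorted from 2 pools of 6 brains, 1 pool per genotype, were measured by droplet single-cell RNA sequencing, which counts transcripts by a tag near their 3′ end. The deposited values are raw UMI counts per gene and barcode, made by the authors with Cell Ranger 6.1.2 (per the file headers) on mm10. The submitters' processing notes also name STAR and Seurat 3.0.1. The chip version of each library is not given in the sources used here.

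Barcodes that held 200 genes or more, with mitochondrial UMIs not above 10%, were put into 3 classes by the gates given above. UMIs of a gene were summed over the cells of a class and divided by all their UMIs, and are given as CPM (counts per 1000000 UMIs). Levels are not divided by gene length, since each transcript gives 1 tag, and members are not ranked against each other. With 1 library per genotype no test was run: levels have exact Poisson, shares exact binomial and ratios Clopper-Pearson intervals, all at 95%, and p-values and standard errors were not computed. Where a count was 0, the upper limit is 3 counts. For shares and co-detection each cell was thinned to 1000 UMIs, and shallower cells were left out. Folds between genotypes were counted past 2-fold over genes that reached 50 CPM in either library. A cell was led by the marker list with the most markers detected, if at least 3 of its 8 markers were found, and ties were left unassigned. Promoter sequences came from RefSeq.

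All 10 members are named, together with the 10 genes with the highest fold between *Disc1 WT/WT* microglia with at least 3 members and none, among genes with 50 CPM or more in the former, and genes of the lists. Members and lists were chosen with earlier results of these data known. The extra genes used to describe cells in the plots by gate and granule genes were chosen after their values were seen. Doublets were not called, and leaving out the 5% deepest cells was an alternative. Other alternatives were the cell filters, the gates, TMM scaling (edgeR 4.0.16 in R 4.3.3), totals without mitochondrial and hemoglobin genes, a mean over cells, and the thinning depth and seed. The script for ratios and their intervals was checked on simulated counts. The scripts ran in Python 3.11.15 with pandas 2.3.3, scipy 1.17.1, matplotlib 3.10.9 and numpy 2.4.6. Results for some genes are not reported here.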

Additional observations from a re-analysis of the deposited data

Results flagged for a closer look

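Genotype ratios of 3 members pointed in opposite directions in different cell classes, with intervals on either side of 0. None of these differences was tested, since each genotype has 1 library. For *Jun* the log2 ratio in microglia (*Disc1 LI/LI* over *Disc1 WT/WT*) exceeded that in neutrophils by 0.50 and that in other cells by 0.73. For *Jund* the excess of microglia was 0.88 over neutrophils and 0.88 over other cells. For *Nr4a1* the ratio in microglia exceeded that in neutrophils by 2.53, and the ratio in neutrophils minus that in other cells was -1.67. Under TMM scaling the intervals of *Jun* (0.13, -0.12 to 0.38) and *Jund* (-0.09, -0.24 to 0.07) in neutrophils included 0, and the excess of microglia over neutrophils was 0.09 and 0.47, against 2.12 for *Nr4a1*. The part of microglial RNA in the *Disc1 WT/WT* neutrophils, at 20.4% of the microglial level, and of neutrophil and monocyte RNA in the *Disc1 LI/LI* microglia in these differences was not tested.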

How the results depend on the processing

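The median log2 ratio of the members in microglia (0.54) stayed above 0 under all 13 alternatives. It was 0.68 with the gate at 0.25% of UMIs, 0.67 under TMM scaling and 0.32 in microglia without *S100a8* and *S100a9* UMIs. None of these alternatives took off RNA of classical monocytes. The neutrophil median (-0.08) turned to 0.46 under TMM scaling and stood at -0.61 after thinning to 1000 UMIs, which leaves no stable direction. The median in other cells (0.58) stayed above 0, at 0.25 and 1.149 with the microglia gate at 0.25% and 1%, 1.07 under TMM scaling, 0.95 as a mean over cells, 0.90 with thinned cells and 0.86 without the 5% deepest cells. Single members with an interval off 0 changed direction in 2 cases: *Atf3* in microglia without *S100a8* and *S100a9* UMIs (-0.31) and *Jun* in neutrophils under TMM scaling (0.13). Ratios whose interval spans 0 also changed sign under some alternatives (*Fosb* and *Egr1* in microglia, *Fos*, *Junb*, *Egr1* and *Atf3* in neutrophils). In all, 103 of 130 single values moved by less than their counting interval in microglia, 81 of 100 in neutrophils and 56 of 110 in other cells.

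The share of microglia with 3 or more members was 28.7% (*Disc1 WT/WT*) and 37.7% (*Disc1 LI/LI*) at 2000 UMIs, 53.6% and 57.1% without thinning, and 12.8% in *Disc1 WT/WT* with the gate at 1%. It was 12.7% in *Disc1 LI/LI* microglia without *S100a8* and *S100a9* UMIs. The fold of *Fos* with *Jun* was 5.61 at 2000 UMIs and 6.14 without thinning in *Disc1 WT/WT*, and 13.6 in the *Disc1 LI/LI* microglia without *S100a8* and *S100a9* UMIs. The cause of these shifts was not tested. Alternatives that left out *S100a8* and *S100a9* positive microglia, neutrophils with microglia genes or the richest 1% of cells, or that took off free neutrophil RNA, were chosen after seeing the data. No paired analysis was possible because each genotype has 1 library and the replicate numbers pair nothing. Members with few UMIs, such as *Nr4a1* and *Fosb* in microglia and *Egr1* in *Disc1 WT/WT* neutrophils, are limited by depth.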
